A study of Homo sapiens with 12 samples.

Results

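The comparison described here sets rescued PLC/PRF/5 hepatoma cells against control cells and asks which genes stay unlike control although HKDC1 mRNA is far above the control level. Its members are 8 of the 12 libraries of the study, chosen by sample title: 4 rescue libraries (KO_RES) and 4 controls. PLC/PRF/5 is an established human liver cancer cell line of epithelial origin. KO_RES cells are labelled as an HKDC1 knockout with rescue, KO cells carry the knockout alone, and control cells are given as wild type. KO_RES and KO come from 2 lines with 2 libraries each per group. A library is named by line and number, so that KO_RES 1_2 is line 1, number 2. The controls are numbered 1 to 4 and carry no line.

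The labels leave several limits on these groups as a model. They name neither the edit nor the construct that restored HKDC1, and are silent on whether a line is a clone, on the oxygen level during growth and on whether each library had a culture of its own. The p-values therefore rest on the spread among libraries alone. Over both lines that spread takes in the difference between the lines, while within a line or among controls it may be technical. The 4 KO_RES libraries were counted as 4 units although they come from 2 lines, so the p-values do not speak for further lines. Title and genotype field disagree on the group of 4 libraries, namely KO_RES 1_1, KO 1_2, KO_RES 2_1 and also KO 2_2, and titles were followed throughout. In a bulk sample, fewer cells of a type and less RNA per cell cannot be told apart.

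Hexokinases phosphorylate glucose, the first step of its use by the cell, and HKDC1 is the member of the family described last. Beta-catenin, encoded by CTNNB1, both anchors cadherins at cell junctions and acts as the nuclear effector of Wnt signalling, and the title of the study links HKDC1 to beta-catenin, stemness and hypoxia. Desmosomes are junctions that tie the keratin skeletons of neighbouring epithelial cells together through their own cadherins, the desmocollins (DSC) and desmogleins (DSG).

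Levels are given as CPM (counts scaled to a common library size with TMM factors), with the 4 KO_RES values in the order 1_1, 1_2, 2_1 and 2_2 and the controls in the order 1 to 4. HKDC1 itself, which lies on chromosome 10 (ENSG00000156510.11), stood at 1237, 1546, 507 and 626 CPM in KO_RES, against 157, 154, 183 and 124 CPM in control. Each KO_RES library lay above each of the other 8 libraries, KO included, so the HKDC1 level follows the titles and not the genotype field. In KO it was at 153 and 147 CPM in line 1 and 91.2 and 49.3 CPM in line 2, so that the mRNA of the line 1 knockout lay within the range of the controls and that of line 2 below it. The mean was 9.01 times the control mean in line 1 and 3.67 times in line 2. The log2 fold change over both lines was 2.67 (SE 0.41, adjusted p = 0.00503, edgeR's quasi-likelihood test with Benjamini-Hochberg adjustment over all genes tested, as for every adjusted p here unless another tool is named). Against controls 3 and 4 alone it was 2.68 with adjusted p = 0.0595. Counts are per gene, so transcript from the locus and from the introduced copy cannot be told apart.

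The other hexokinases did not move together with HKDC1. HK2, the form typical of hepatoma cells, was at 4.24, 7.90, 18.5 and 23.96 CPM in KO_RES, against 11.2, 10.5, 6.79 and 9.59 CPM in control. Both line 2 libraries lay above every control and the line 1 libraries did not. HK2 rose in line 2 (log2 fold change 1.16, adjusted p = 0.0268) and missed the threshold in line 1 (-0.65, adjusted p = 0.165), with a difference between the lines of 1.81 (line 2 minus line 1, adjusted p = 0.00628). HK1, present in most tissues, was at 19.04 to 30.0 CPM in KO_RES and 20.4 to 28.1 CPM in control (0.09, adjusted p = 0.809). HK3 was at or below 0.2365 CPM in every one of these libraries and too low to test.

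CTNNB1 was at 233, 214, 462 and 243 CPM in KO_RES, against 502, 466, 556 and 508 CPM in control. No KO_RES library reached the lowest control, although KO_RES 2_1 came close to it. Over both lines the change missed the threshold (log2 fold change -0.82, SE 0.27, adjusted p = 0.103). It passed with DESeq2 (-0.82, adjusted p = 0.0485), and in edgeR without KO_RES 2_1 (adjusted p = 0.0204). In the fit by line CTNNB1 fell in line 1 (-1.19, adjusted p = 0.00529) and not past the threshold in line 2 (-0.53, adjusted p = 0.16). The lines did not differ past the threshold (0.66, adjusted p = 0.11).

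**Figure D1:**
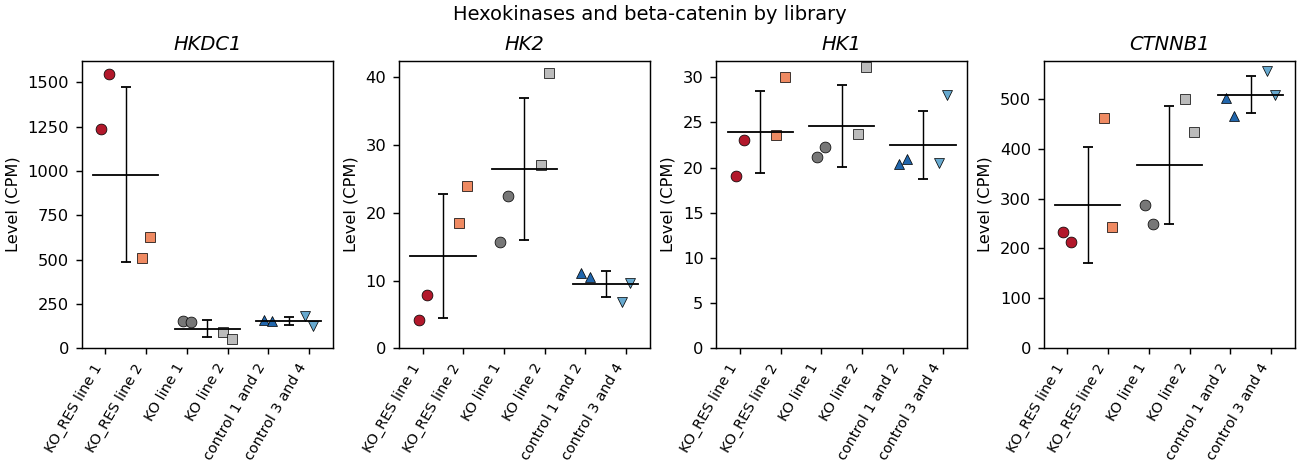
Levels of HKDC1, HK2, HK1 and CTNNB1 (CPM, linear axes from 0) in each library, with KO_RES on the left, KO in the middle and control on the right. Points are libraries, horizontal lines are means and bars are SD over 4 libraries of a group. HKDC1 in KO_RES lies between 507 and 1546 CPM and in control between 124 and 183 CPM.

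Counts over genes ran from 36075411 to 60154638 in KO_RES and from 57333288 to 71853616 in control. Controls 1 and 2 stood apart from controls 3 and 4, with a root mean square log2 difference between libraries of 0.872 to 0.911 across those pairs and 0.327 to 0.472 within them. ALB, which encodes albumin, was at 49.2, 63.1, 20.7 and 25.2 CPM in KO_RES, against 908, 822, 22.99 and 28.2 CPM in control. Results were therefore also computed against each control pair, with 2 controls in each fit, and calls that this ended are named. In all 8 libraries the liver factor HNF4A (147 to 194 CPM in KO_RES, 190 to 221 CPM in control) and the epithelial keratin KRT8 (1154 to 1931 CPM in KO_RES, 1775 to 2392 CPM in control) were present. Fibroblast and stellate cell markers summed to 5.88 to 13.4 CPM in KO_RES and 8.53 to 15.4 CPM in control, with COL1A2 and POSTN at or near 0. Endothelial markers summed to 0.368 to 1.24 CPM in KO_RES and 0.439 to 2.23 CPM in control. Among blood cell markers PTPRC was at most 0.0896 CPM, while LYZ was at 268 to 370 CPM in KO_RES and 333 to 921 CPM in control.

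KO_RES libraries lay nearer to the knockout of their own line than to control. The root mean square log2 difference had a median of 0.599 between KO_RES and KO of the same line, 1.06 between KO_RES and control, and 1.13 between the lines within KO_RES. KO against control gave a median of 1.01. The first principal component (40.3% of variance) separated line 1 from all other libraries. The next (24.2%) separated line 2 from the controls.

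**Figure D2:**
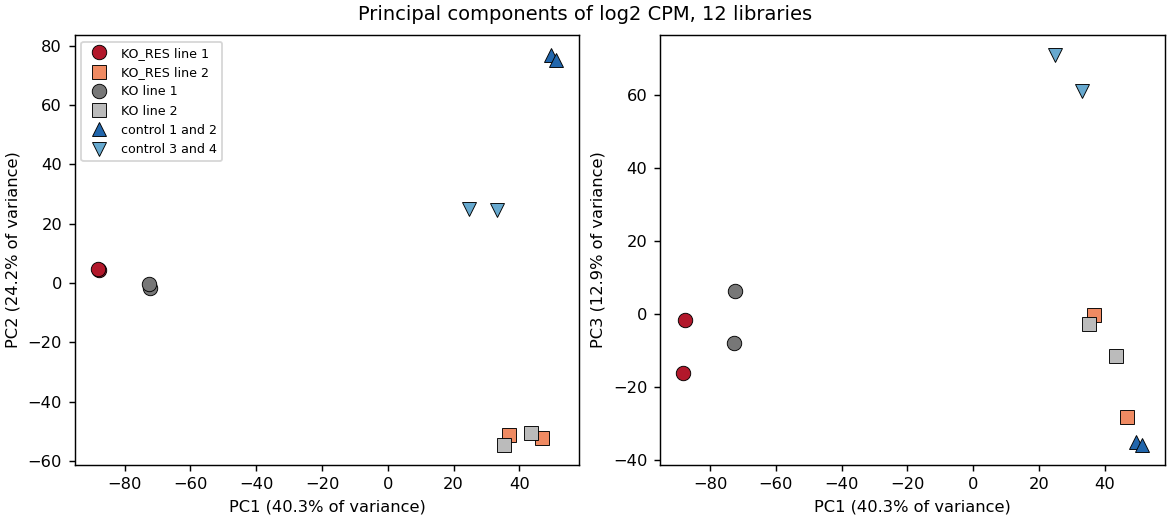
Principal components of log2 CPM over the 12 libraries, with PC1 (40.3% of variance) on the horizontal axes and PC2 (24.2%) or PC3 (12.9%) on the vertical axes. KO_RES libraries (red and orange) sit beside the KO libraries of their line (grey), and controls 1 and 2 sit apart from controls 3 and 4.

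Of 19200 genes tested, 1050 differed between KO_RES and control at an adjusted p under 0.05 (5.47%), 418 higher (2.18%) and 632 lower (3.29%) in KO_RES. The 4 KO_RES libraries did not overlap the 4 controls in 2637 genes (13.7%), 1206 of them higher (6.28%) and 1431 lower (7.45%). The count rests on single libraries: it was 471 without KO_RES 1_2, 473 without control 2, 493 without control 1 and 673 without KO_RES 1_1. Against controls 1 and 2 alone 1440 genes passed (7.09%), and against controls 3 and 4 alone 384 (1.91%). A core of 188 of the 1050 genes (0.979% of those tested) passed against each control pair and in each line, 51 higher and 137 lower (0.266% and 0.714%). Without any single library, 382 of the 1050 still passed each time (1.99% of those tested), 120 higher and 262 lower. The median log2 fold change of all genes tested was 0.02, and 52.65% of them had a positive one.

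The genes described next are the 15 falls and the 15 rises with the widest gap between the groups. All 15 falls passed in each line, against each control pair and without any single library. Among the 15 rises all passed in each line, 11 passed against each control pair and 10 passed without any single library. Over all genes tested, 1.29% were called higher and 2.18% lower with a call in each line, and 0.276% higher and 0.719% lower with a call against each control pair (3.47% and 0.995% in either direction). Without any single library the shares were 0.625% and 1.36%. The rule used the same contrast, so these shares are background only.

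**Figure D3:**
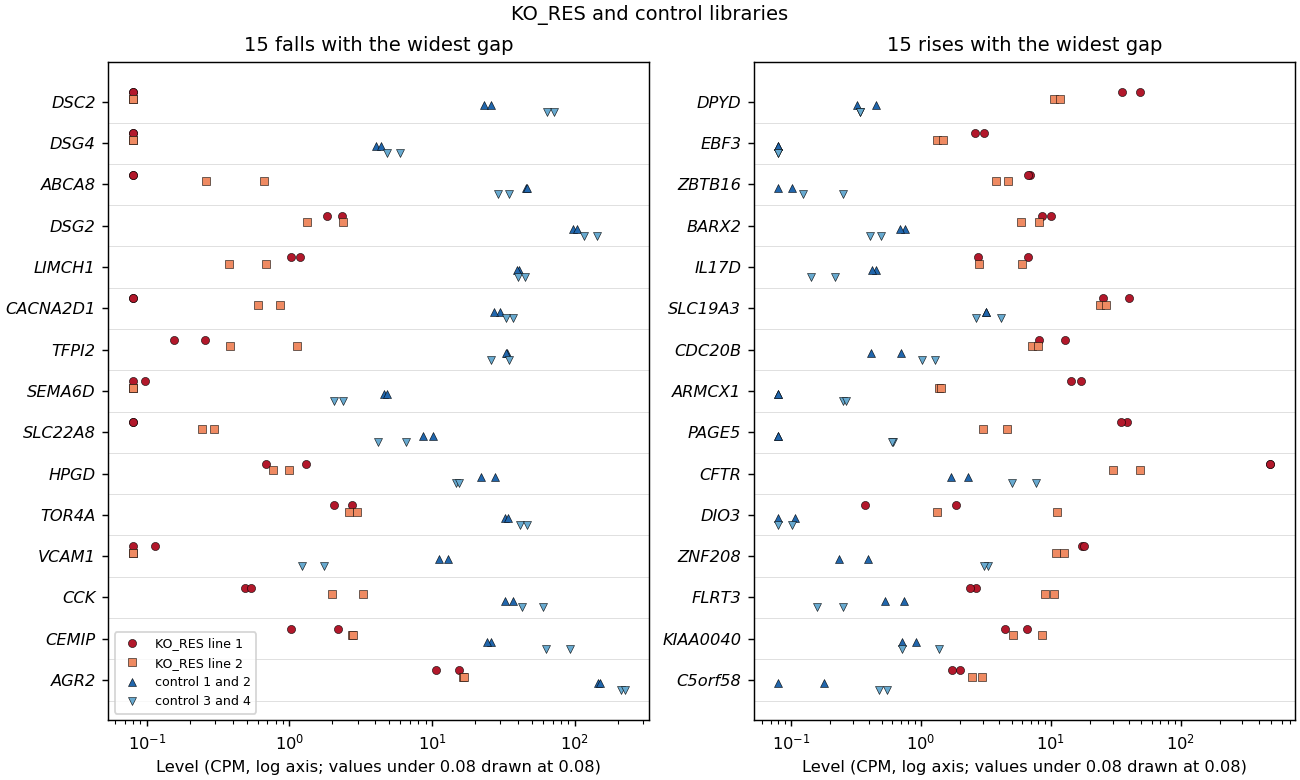
Levels of the 15 falls (left) and 15 rises (right) in the 4 KO_RES and 4 control libraries, on a log axis in CPM with values under 0.08 drawn at 0.08. Red circles are KO_RES line 1, orange squares KO_RES line 2, and blue triangles the controls. In every gene shown, the KO_RES points of both lines lie on the same side of all 4 controls.

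The deepest falls were in desmosomal cadherins that neighbour each other on chromosome 18. DSC2, which encodes desmocollin 2, was at 0.0195, 0.0566, 0.0187 and 0.0739 CPM in KO_RES, against 23.3, 25.8, 71.6 and 63.8 CPM in control. These KO_RES values rest on 1, 2, 1 and 5 counts, 3 of them at or under the floor of 3 counts, while every control was far above the floor (adjusted p = 4.86e-05). DSG2, desmoglein 2, was at 2.34, 1.84, 1.33 and 2.37 CPM in KO_RES, against 97.8, 103, 116 and 142 CPM in control. Its log2 fold change was -5.86 (SE 0.66, adjusted p = 0.000819), -5.77 in line 1 and -5.95 in line 2. DSG2 averaged 9.72 CPM in KO of line 1 and 1.61 CPM in KO of line 2, so neither knockout line was at the control level. DSG4, best known from hair, fell as well, from a low level: it was at 0 to 0.0283 CPM in KO_RES and 4.03 to 5.91 CPM in control (adjusted p = 4.86e-05).

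DSC3 was at 0 counts in all 4 KO_RES libraries, against 0.735, 0.613, 42.9 and 39.5 CPM in control. Set against a floor of 3 counts per library it was at least 343-fold lower (adjusted p = 0.0185), and it missed the threshold in the fit by line (adjusted p = 0.0551 in line 1 and 0.07 in line 2). The order of the cluster is DSC3, DSC2, DSC1, DSG1, DSG4, DSG3 and DSG2. DSC1, DSG1 and DSG3 were at most 0.1351 CPM in any KO_RES or control library and were not tested. CDH2 lies on the DSC3 side of the cluster, and TTR and then B4GALT6 on the DSG2 side. CDH2, N-cadherin, was at 124, 123, 175 and 133 CPM in KO_RES, against 149, 140, 144 and 123 CPM in control (log2 fold change -0.00, adjusted p = 0.997). B4GALT6, a glycosyltransferase gene, had overlapping groups, at 7.17 to 9.45 CPM in KO_RES and 5.93 to 14.8 CPM in control. B4GALT6 did not pass (-0.31, adjusted p = 0.598). TTR, which encodes the thyroid hormone carrier transthyretin, fell, and was at 0.0391, 0, 0.486 and 0.458 CPM in KO_RES, against 34.1, 33.0, 2.74 and 1.59 CPM in control (-6.10, adjusted p = 0.0235). Its call was lost against controls 3 and 4 (adjusted p = 0.228) and without control 1, control 2, KO_RES 1_1 or KO_RES 1_2.

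Of the 12 tested genes on the list of desmosomes and cadherins, 5 fell (beside 3.29% of all genes) and the other 7 passed in neither direction, with a median log2 fold change of -1.43 beside 0.02 for all genes. JUP, plakoglobin, the desmosomal relative of beta-catenin, was at 30.0, 26.8, 54.2 and 56.4 CPM in KO_RES, against 105, 108, 207 and 259 CPM in control. JUP fell (-2.02, SE 0.34, adjusted p = 0.00734) in each line and against each control pair. The remaining fall was CDH1, E-cadherin, which the rule for named genes did not take and which was named after its values were seen. CDH1 was at 21.01, 39.2, 17.4 and 50.9 CPM in KO_RES, against 88.0, 98.9, 71.3 and 98.7 CPM in control (-1.47, adjusted p = 0.0308), with adjusted p of 0.0556 and 0.154 against controls 1 and 2 and controls 3 and 4. DSP, desmoplakin, which links the plaque to keratin, was at 462 to 678 CPM in KO_RES and 322 to 445 CPM in control (0.55, adjusted p = 0.0582). PKP2, a plakophilin of the plaque, was at 48.5 to 54.3 CPM in KO_RES and 40.3 to 46.6 CPM in control (0.24, adjusted p = 0.214).

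Promoter windows are shown for a pair of the same cluster that fell, DSC2 and DSG2, and for a pair that rose, DPYD and EBF3, from 250 bases before to 50 bases after the gene's start (RefSeq, GRCh38.p14, whose coordinates are not those of the GRCh37 build of the counts). Each is written 5′ to 3′ on the gene's own strand, with CpG dinucleotides in capitals. DSC2 lies on chr18:31102372-31102671, minus strand, and DSG2 on chr18:31497927-31498226, plus strand. DPYD lies on chr1:97920985-97921284, minus strand, and EBF3 on chr10:129964225-129964524, minus strand.
DSC2: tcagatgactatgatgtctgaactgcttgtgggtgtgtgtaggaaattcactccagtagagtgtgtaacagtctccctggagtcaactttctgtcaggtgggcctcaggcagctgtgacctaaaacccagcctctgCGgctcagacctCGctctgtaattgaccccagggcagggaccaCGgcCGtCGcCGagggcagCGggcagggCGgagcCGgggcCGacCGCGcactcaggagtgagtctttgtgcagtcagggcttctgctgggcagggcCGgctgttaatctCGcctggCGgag
DSG2: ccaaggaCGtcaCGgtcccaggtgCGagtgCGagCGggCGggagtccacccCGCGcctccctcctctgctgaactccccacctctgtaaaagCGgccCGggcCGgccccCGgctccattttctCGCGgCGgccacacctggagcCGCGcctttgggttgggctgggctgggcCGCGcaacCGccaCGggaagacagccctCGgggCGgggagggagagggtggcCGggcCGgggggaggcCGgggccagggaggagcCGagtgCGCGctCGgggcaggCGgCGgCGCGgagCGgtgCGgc
DPYD: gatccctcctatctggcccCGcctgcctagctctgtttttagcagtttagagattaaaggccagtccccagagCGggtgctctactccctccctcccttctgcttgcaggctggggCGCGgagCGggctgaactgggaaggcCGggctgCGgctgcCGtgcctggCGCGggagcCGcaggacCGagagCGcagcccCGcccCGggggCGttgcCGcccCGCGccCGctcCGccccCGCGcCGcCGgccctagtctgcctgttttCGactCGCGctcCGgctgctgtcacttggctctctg
EBF3: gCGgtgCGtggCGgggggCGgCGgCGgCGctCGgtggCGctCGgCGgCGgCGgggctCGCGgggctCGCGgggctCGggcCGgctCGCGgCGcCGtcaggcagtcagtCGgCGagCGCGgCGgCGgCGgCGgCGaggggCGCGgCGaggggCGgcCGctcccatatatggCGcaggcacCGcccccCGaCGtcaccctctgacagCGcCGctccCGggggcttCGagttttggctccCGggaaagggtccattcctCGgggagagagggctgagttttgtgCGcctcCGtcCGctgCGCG
CpG dinucleotides number 15 in the DSC2 window, 36 in DSG2, 29 in DPYD and 52 in EBF3, against a median of 26 over the 12311 tested genes with a window. Of the 30 genes, 25 had a window in the RefSeq table, 12 falls and 13 rises. The TCF/LEF core CTTTGA, on either strand (TCAAAG), was in the windows of SEMA6D and HPGD among the falls and in none of the rises, beside 9.2% of the tested genes with a window and 13.1% of all 27305 promoters. The core of the hypoxia response element, ACGTG on either strand (CACGT), which holds a CpG, was in 2 of 12 falls and 5 of 13 rises, beside 26.1% of the tested genes with a window and 21.6% of all promoters. Neither motif contains the other. A match is a run of letters and not a shown site.

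Several other falls were in genes of the cell surface and of secreted proteins. ABCA8, a lipid transporter, was at 0, 0.0283, 0.262 and 0.665 CPM in KO_RES, against 45.3, 46.1, 29.02 and 34.5 CPM in control (adjusted p = 0.00512). CACNA2D1, an auxiliary subunit of voltage-gated calcium channels, was at 0.0391, 0.0566, 0.860 and 0.606 CPM in KO_RES, against 29.9, 27.1, 37.1 and 32.8 CPM in control. Line 1 was at the floor of these counts for both genes, and line 2 above it. The lines differed in ABCA8 (line 2 minus line 1, adjusted p = 0.00474) and in CACNA2D1 (adjusted p = 0.000316). SLC22A8, an organic anion transporter, was at 0.0195 to 0.296 CPM in KO_RES and 4.19 to 10.1 CPM in control (adjusted p = 0.0014). Each line 1 library held 1 count of SLC22A8, and the lines differed (line 2 minus line 1 3.42, adjusted p = 0.0072). VCAM1, an adhesion molecule for leukocytes, was at 0.0187 to 0.113 CPM in KO_RES, against 12.9, 11.2, 1.76 and 1.22 CPM in control (adjusted p = 0.00443). The KO_RES values of VCAM1 rest on 3, 4, 1 and 5 counts.

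LIMCH1, an activator of non-muscle myosin, was at 1.19, 1.02, 0.374 and 0.680 CPM in KO_RES, against 40.7, 39.1, 39.9 and 44.7 CPM in control. The controls were close to each other here, pairs included, and the log2 fold change was -5.66 (SE 0.46, adjusted p = 0.000127). TFPI2, a secreted protease inhibitor, was at 0.156, 0.255, 1.12 and 0.384 CPM in KO_RES, against 33.7, 32.9, 34.6 and 25.9 CPM in control (-6.03, SE 0.63, adjusted p = 0.000489). HPGD, the enzyme that breaks down prostaglandins, was at 1.31, 0.679, 0.767 and 0.991 CPM in KO_RES, against 27.4, 21.9, 14.7 and 15.4 CPM in control (-4.40, adjusted p = 0.00177). All of these groups were far apart compared with the spread within them. HPGD averaged 5.36 CPM in KO of line 1 and 1.26 CPM in KO of line 2.

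Secreted and secretory proteins also stood among the falls. AGR2, a protein disulfide isomerase of the endoplasmic reticulum known from mucus-secreting cells, was at 15.5, 10.6, 16.5 and 16.6 CPM in KO_RES, against 145, 149, 211 and 223 CPM in control (-3.62, SE 0.30, adjusted p = 0.000131). CCK, the gut hormone cholecystokinin, was at 0.488 to 3.29 CPM in KO_RES and 32.3 to 59.6 CPM in control (-4.75, adjusted p = 0.00521). The last members were CEMIP, which takes part in hyaluronan breakdown (-4.54), SEMA6D, a semaphorin (-5.87), and TOR4A, a torsin ATPase (-3.90), with adjusted p between 0.000152 and 0.00122. For CCK line 2 stayed nearer to control than line 1 (line 2 minus line 1 2.35, adjusted p = 0.00219), and the other 4 genes did not differ between the lines past the threshold (adjusted p of at least 0.447).

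The rise with the widest gap was DPYD, the first enzyme of pyrimidine breakdown and the one that inactivates fluorouracil. DPYD was at 35.3, 48.4, 10.7 and 11.8 CPM in KO_RES, against 0.323, 0.453, 0.338 and 0.337 CPM in control (6.18, SE 0.65, adjusted p = 0.000516). Line 1 was higher than line 2 (line 2 minus line 1 -1.90, adjusted p = 0.0002), and KO averaged 24.4 CPM in line 1 and 8.39 CPM in line 2. Of 15 tested genes of pyrimidine breakdown and synthesis, 3 rose (beside 2.18% of all genes) and the other 12 passed in neither direction, with a median of 0.16. TYMP, thymidine phosphorylase, was at 29.1, 28.9, 20.9 and 26.4 CPM in KO_RES, against 9.79, 11.5, 12.7 and 15.8 CPM in control (1.08, adjusted p = 0.0157), a call lost without control 1 or control 2. DPYS, which acts after DPYD, was at 0.368 to 0.449 CPM in KO_RES and 0.0169 to 0.197 CPM in control (adjusted p = 0.0374), a call lost in 10 of 12 omissions of a library.

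Transcription factors of development were among the rises. EBF3, a factor of neuronal and mesenchymal development, was at 3.08, 2.605, 1.33 and 1.49 CPM in KO_RES, against 0.0717, 0.0438, 0.0338 and 0.0177 CPM in control (adjusted p = 0.000143). BARX2, a homeobox factor, was at 10.02, 8.64, 8.19 and 5.90 CPM in KO_RES, against 0.753, 0.686, 0.490 and 0.408 CPM in control (3.802, SE 0.27, adjusted p = 4.86e-05). ZBTB16, a zinc finger repressor also called PLZF, was at 6.87, 6.68, 3.76 and 4.72 CPM in KO_RES, against 0.0358, 0.102, 0.253 and 0.124 CPM in control (5.39, SE 0.46, adjusted p = 0.000152). In none of these 3 genes did the lines differ past the threshold. ZNF208, a zinc finger gene with close relatives among which reads may be split, was at 11.1 to 18.2 CPM in KO_RES and 0.233 to 3.31 CPM in control (adjusted p = 0.0249), a call lost without control 2, KO_RES 1_1 or KO_RES 1_2.

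SLC19A3, a thiamine transporter, was at 25.1, 40.5, 24.2 and 26.8 CPM in KO_RES, against 3.17, 3.20, 2.65 and 4.17 CPM in control (3.14, SE 0.22, adjusted p = 4.86e-05). IL17D, a cytokine, was at 2.73, 6.65, 2.79 and 6.06 CPM in KO_RES, against 0.448, 0.423, 0.220 and 0.142 CPM in control (3.87, adjusted p = 0.00188). In both lines the library with number 2 was the higher one for IL17D, by 1.28 and 1.12 on the log2 scale. FLRT3, a membrane protein that binds growth factor receptors and unc5 receptors, was at 2.64, 2.38, 9.11 and 10.6 CPM in KO_RES, against 0.735, 0.526, 0.253 and 0.160 CPM in control (3.88, adjusted p = 0.00527), with line 2 the higher one (1.97, adjusted p = 0.0252). CDC20B, KIAA0040 and C5orf58 rose by 3.41, 2.73 and 2.90 (adjusted p = 0.0043, 0.000489 and 0.0166), the call of C5orf58 being lost without control 1.

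The remaining 4 rises passed in each line and were not called against each control pair. CFTR, the chloride channel of bile duct and other epithelia, was at 489, 487, 49.0 and 30.4 CPM in KO_RES, against 2.31, 1.71, 7.67 and 5.05 CPM in control. The log2 fold change was 6.87 in line 1 (adjusted p = 1.94e-05) and 3.24 in line 2 (adjusted p = 0.00206), with a difference between lines of -3.62 (adjusted p = 0.00263). DIO3, which inactivates thyroid hormone, was at 1.85, 0.368, 11.1 and 1.33 CPM in KO_RES, against 0.108, 0.0438, 0.101 and 0.0355 CPM in control (adjusted p = 0.0116). Its neighbour DIO3OS, transcribed from the other strand, was at 0.683, 0.311, 2.99 and 1.06 CPM in KO_RES and at or under the floor of 3 counts in each control (adjusted p = 0.00187). PAGE5 and ARMCX1, both on the X chromosome, were higher in line 1 (34.8 to 38.5 CPM and 14.4 to 17.1 CPM) than in line 2 (2.99 to 4.64 CPM and 1.38 to 1.42 CPM), and at most 0.608 CPM and 0.266 CPM in control. PAGE5 belongs to a family of near-identical copies, so its counts are uncertain. Calls for CFTR were lost without control 1, control 2 or KO_RES 1_2, those for ARMCX1 in 6 and those for PAGE5 in 8 of 12 omissions of a library.

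Genes of adhesion, matrix and signalling outside the cadherins changed as well. LTBP1, which stores latent TGF-beta in the matrix, was at 75.7, 64.5, 63.1 and 64.0 CPM in KO_RES, against 137, 144, 147 and 161 CPM in control (-1.14, SE 0.10, adjusted p = 0.000189). TGFB3, one of the TGF-beta ligands, was at 3.26, 3.99, 3.93 and 3.39 CPM in KO_RES, against 1.15, 1.08, 1.15 and 1.65 CPM in control (1.53, SE 0.19, adjusted p = 0.00144). Another ligand, TGFB2, went the other way, at 0.840, 0.227, 0.112 and 0.0591 CPM in KO_RES, against 3.82, 3.14, 4.39 and 3.65 CPM in control (-3.60, adjusted p = 0.0422), a call lost in 8 of 12 omissions of a library. Of 18 tested TGF-beta signalling genes, 1 rose and 2 fell (beside 2.18% and 3.29% of all genes), with a median of -0.17.

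Integrins and basement membrane genes included 5 falls among 20 tested (beside 3.29% of all genes), with a median of -0.38. LAMB3, a chain of laminin 332, was at 1.43, 1.13, 2.09 and 2.79 CPM in KO_RES, against 10.4, 12.5, 29.9 and 32.1 CPM in control (-3.50, adjusted p = 0.00497). ITGB5, an integrin that binds vitronectin, was at 261, 287, 272 and 321 CPM in KO_RES, against 382, 428, 438 and 532 CPM in control (-0.64, SE 0.12, adjusted p = 0.00974). Both passed in each line and against each control pair. ITGAV, the partner of ITGB5 (-0.63, adjusted p = 0.0252), and ITGA6, a laminin receptor (-1.54, adjusted p = 0.0317), each lost the call in 4 of 12 omissions of a library.

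Over both lines 5.47% of all genes passed. Among 12 tested mesenchymal markers VIM, vimentin, was the only call. It was at 89.2, 53.8, 82.8 and 52.9 CPM in KO_RES, against 303, 308, 266 and 220 CPM in control (-1.98, SE 0.30, adjusted p = 0.00492), in each line and against each control pair. VIM averaged 182 CPM in KO of line 1 and 94.2 CPM in KO of line 2. Of 14 tested YAP/TAZ targets AXL, a receptor tyrosine kinase, fell (-1.78, adjusted p = 0.0158; without KO_RES 1_2 adjusted p = 0.0547), and the list median was 0.07. F11R, a tight junction protein, was the only call among 15 tight junction and keratin genes (-0.48, adjusted p = 0.0291), lost in 6 of 12 omissions of a library.

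For Wnt/beta-catenin targets, 3 of 17 tested genes fell (beside 3.29% of all genes) and the other 14 passed in neither direction, with a median of -0.44. In line 1, 1 rose and 7 fell (10.7% of all genes fell there), with a median of -0.73. In line 2, 2 fell (5.36% of all genes), with a median of -0.32. TBX3, a T-box factor of liver progenitors and tumours with active Wnt signalling, was at 11.2, 8.98, 8.81 and 10.5 CPM in KO_RES, against 151, 150, 41.5 and 43.8 CPM in control (-3.29, SE 0.46, adjusted p = 0.00269). Its groups stayed far apart against either control pair and in either line. ZNRF3, which removes Wnt receptors, was at 25.2 to 34.8 CPM in KO_RES and 42.7 to 48.0 CPM in control (-0.63, adjusted p = 0.0178; without KO_RES 1_2 adjusted p = 0.0613). DKK1, a secreted Wnt antagonist, was at 0 to 0.0781 CPM in KO_RES, against 2.90, 1.88, 0.270 and 0.124 CPM in control (adjusted p = 0.0336), a call lost in 6 of 12 omissions of a library. AXIN2, the usual readout of Wnt signalling, did not pass (-0.71, adjusted p = 0.193).

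Of 17 tested liver cancer stem cell markers, 1 rose and 4 fell (beside 2.18% and 3.29% of all genes), with a median of 0.14. EPCAM, an adhesion molecule of progenitor cells, was at 12.4, 9.88, 40.0 and 37.9 CPM in KO_RES, against 4.62, 3.69, 1.60 and 1.31 CPM in control (3.16, SE 0.58, adjusted p = 0.011). Line 2 was higher than line 1 (1.80, adjusted p = 0.0311), and the call was narrowly lost against controls 1 and 2 (adjusted p = 0.0504). SOX2, a factor of pluripotent cells, fell at low levels, to 0 to 0.137 CPM in KO_RES, against 0.423 to 1.98 CPM in control (adjusted p = 0.0214; without KO_RES 1_2 adjusted p = 0.0679). ALDH1A1, an aldehyde dehydrogenase (-0.84, adjusted p = 0.0264), and ANPEP, the aminopeptidase CD13 (-1.08, adjusted p = 0.0252), fell, each with the call lost in 5 of 12 omissions of a library. PROM1, CD133, split the lines instead. It was at 49.7, 45.0, 0.374 and 0.562 CPM in KO_RES, against 1.43, 1.97, 45.1 and 34.6 CPM in control (0.20, adjusted p = 0.962).

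Biliary and progenitor markers were mixed, with 3 rises and 2 falls among 15 tested (beside 2.18% and 3.29% of all genes) and a median of 0.20. EPCAM and CFTR were among the rises. GGT1, gamma-glutamyltransferase, fell (-1.19, adjusted p = 0.0138), and KRT7, a bile duct keratin, was at 0.673 to 1.11 CPM in KO_RES and 2.08 to 3.15 CPM in control (-1.75, adjusted p = 0.0158; without KO_RES 1_2 adjusted p = 0.0541).

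Hypoxia response genes outside glycolysis lay mostly below control: 4 of 22 fell (beside 3.29% of all genes), and the median was -0.64. The fold change was negative in 20 of 22, while 52.65% of all genes had a positive one. ANGPTL4, an inhibitor of lipoprotein lipase, was at 18.3, 19.3, 15.9 and 14.7 CPM in KO_RES, against 60.5, 64.7, 31.4 and 36.1 CPM in control (-1.50, SE 0.24, adjusted p = 0.00649). BNIP3, a mitophagy receptor, was at 46.1, 51.5, 53.4 and 47.9 CPM in KO_RES, against 118, 110, 69.6 and 72.6 CPM in control (-0.90, adjusted p = 0.014). P4HA1, a collagen prolyl hydroxylase (-1.08, adjusted p = 0.0176), and ERO1A, an oxidase of the endoplasmic reticulum (-0.50, adjusted p = 0.0214), fell too. Against controls 3 and 4 only ANGPTL4 of these 4 passed, and the list median was -0.19 there and -1.03 against controls 1 and 2. CA9, a hypoxia marker, did not pass (-2.63, adjusted p = 0.135), nor did VEGFA (0.26, adjusted p = 0.366). The calls for P4HA1 and ERO1A were lost without control 1 or control 2, that for ERO1A also without KO_RES 1_1 or KO_RES 1_2.

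Of 17 tested chaperones of the endoplasmic reticulum, 8 fell (beside 3.29% of all genes), 9 passed in neither direction and 16 had a negative fold change, with a median of -0.49. HSP90B1 was at 1214, 1098, 1438 and 1389 CPM in KO_RES, against 2468, 2494, 2057 and 1981 CPM in control (-0.81, SE 0.14, adjusted p = 0.00781). PDIA6 (-0.77), CRELD2 (-0.82) and PDIA3 (-0.60), which help proteins to fold, had adjusted p of 0.0112, 0.0138 and 0.0141. The groups did not overlap in any of these 4, while 7.45% of all genes were lower without overlap. The 4 were named for their small adjusted p in this same contrast, so the separation is no further support. PDIA3 alone lost its call without a single library, KO_RES 1_2 (adjusted p = 0.0523). HSPA5, the chief chaperone of the group, was at 433 to 818 CPM in KO_RES and 480 to 672 CPM in control (-0.11, adjusted p = 0.806). Against controls 3 and 4 the median was -0.41 and edgeR called 0 of the 17 lower, beside 1.33% of all genes, with 9 lower at an unadjusted p under 0.05.

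The ATF4 stress response had 21 of 22 positive fold changes (beside 52.65% of all genes) and a median of 0.48, with 2 rises (beside 2.18% of all genes). TRIB3, a pseudokinase, was at 97.7, 198, 75.4 and 194 CPM in KO_RES, against 7.33, 13.4, 29.6 and 65.0 CPM in control (2.29, adjusted p = 0.0398). SESN2, a sestrin, was at 58.3, 134, 67.4 and 139 CPM in KO_RES, against 30.1, 45.6, 23.9 and 61.0 CPM in control (1.31, adjusted p = 0.0454). The number 2 libraries of KO_RES carried the higher level in both lines, TRIB3 by 1.02 and 1.36 and SESN2 by 1.20 and 1.05 on the log2 scale. This split was not particular to KO_RES. For both genes control 2 lay above control 1 and control 4 above control 3. In KO the number 2 libraries were higher too, TRIB3 at 134 and 163 CPM in line 1 and 101 and 128 CPM in line 2. The list median by library against the control mean was 0.11, 0.91, 0.17 and 1. The call was lost in 10 of 12 omissions of a library for TRIB3 and in 9 for SESN2. HMOX1, heme oxygenase, an NRF2 target, showed the split within KO_RES, at 136, 220, 139 and 227 CPM, but not in KO or between controls 3 and 4. It was at 81.6, 89.8, 99.9 and 80.6 CPM in control (1.04, adjusted p = 0.0164), with the call lost without control 1 or KO_RES 1_2. Of the 17 tested NRF2 targets 1 rose and 1 fell (beside 2.18% and 3.29% of all genes), the fall being AKR1B10 (-4.16, adjusted p = 0.00443), an aldo-keto reductase with a close relative.

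Hepatocyte genes show how far the choice of control decides a result. Of 21 tested hepatocyte secreted proteins, 5 fell over all controls (beside 3.29% of all genes) with a median of -1.79, and 16 of 22 fell against controls 1 and 2, where 4.09% of all genes fell (median -2.53), while against controls 3 and 4 the median was -0.02. APOA1, the main protein of high-density lipoprotein, was at 5.16, 7.42, 5.07 and 5.66 CPM in KO_RES, against 223, 212, 10.3 and 10.4 CPM in control (-4.29, adjusted p = 0.0235; against controls 3 and 4 adjusted p = 0.302). FGB, a fibrinogen chain, was at 581, 722, 204 and 67.9 CPM in KO_RES, against 6174, 5878, 1641 and 1372 CPM in control (-3.26, adjusted p = 0.038; against controls 3 and 4 adjusted p = 0.311). Neither gene overlapped between the groups, beside 7.45% of all genes that were lower without overlap. The fourth named member, APOH, fell by 1.71 on the log2 scale (adjusted p = 0.0228). Leaving out 1 library ended the call in 4 of 12 omissions for APOH, 6 for APOA1 and 7 for FGB.

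Hepatocyte metabolic enzymes had 6 falls among 18 tested (beside 3.29% of all genes, list median -0.83), among them HPD (-1.67, adjusted p = 0.0193) and TDO2 (adjusted p = 0.0321) of tyrosine and tryptophan breakdown, ADH1A (-2.71, adjusted p = 0.0195) and UGT2B7 (-3.50, adjusted p = 0.0236), whose reads may be shared with close relatives. None of these 4 passed against controls 3 and 4, where the lowest adjusted p was 0.106. Of 13 tested hepatic transporters 3 fell (beside 3.29% of all genes, list median -1.03). Besides ABCA8 and SLC22A8 this was SLCO2B1, an uptake transporter, at 3.03, 5.10, 11.5 and 19.5 CPM in KO_RES, against 74.2, 80.5, 57.7 and 83.6 CPM in control (-2.92, SE 0.51, adjusted p = 0.00821), which passed in each line and against each control pair. Among 18 hepatocyte transcription factors 2 rose, PROX1 (0.73, adjusted p = 0.0186) and ONECUT2 (0.94, adjusted p = 0.0405), and 2 fell, TBX3 and NR1I2, the xenobiotic receptor PXR (adjusted p = 0.0154). Of all genes 2.18% rose and 3.29% fell. PROX1 lost its call in 4 and ONECUT2 in 8 of 12 omissions of a library.

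All 13 mitochondrially encoded genes had a negative fold change, with a median of -0.97, and 3 fell in edgeR (beside 3.29% of all genes), while DESeq2 called 11 lower. MT-ND3, a complex I subunit, was at 124, 96.0, 119 and 102 CPM in KO_RES, against 291, 254, 168 and 150 CPM in control (-0.97, adjusted p = 0.0169). The groups did not overlap (7.45% of all genes were lower without overlap), and controls 3 and 4 lay between KO_RES and the other controls. Against controls 1 and 2 all 13 fell (beside 4.09% of all genes), with a median of -1.40. Against controls 3 and 4 the median was -0.34, and edgeR called 0 with 2 lower at an unadjusted p under 0.05. MT-ATP6 and MT-CO3 were the other falls (adjusted p = 0.0293 and 0.0478), and each of the 3 lost its call without control 2 or KO_RES 1_2.

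The nuclear-encoded respiratory chain differed between the lines. In line 1, where 18.2% of 20559 genes passed, 14 of 30 rose (7.47% of all genes did, list median 0.32), among them NDUFS3 of complex I (1.06) and ATP5PO of the ATP synthase (0.89). In line 2, where 9.62% of genes passed, 1 of 30 passed, a fall (4.26% of all genes rose and 5.36% fell), with a median of -0.19. The difference between the lines itself passed for 16 of 30, all lower in line 2, beside 6.22% of all genes lower in line 2. By library the list median against the control mean was 0.37, 0.29, 0.02 and -0.39, so that within line 2 the low value was that of KO_RES 2_2, the library with 21.6% of its reads in no gene or in several. The part of that library in the line difference was not tested. Over both lines SDHB rose (0.64, adjusted p = 0.0426) and COX6C fell (-0.57, adjusted p = 0.0431), and each lost its call in at least 9 of 12 omissions of a library.

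**Figure D4:**
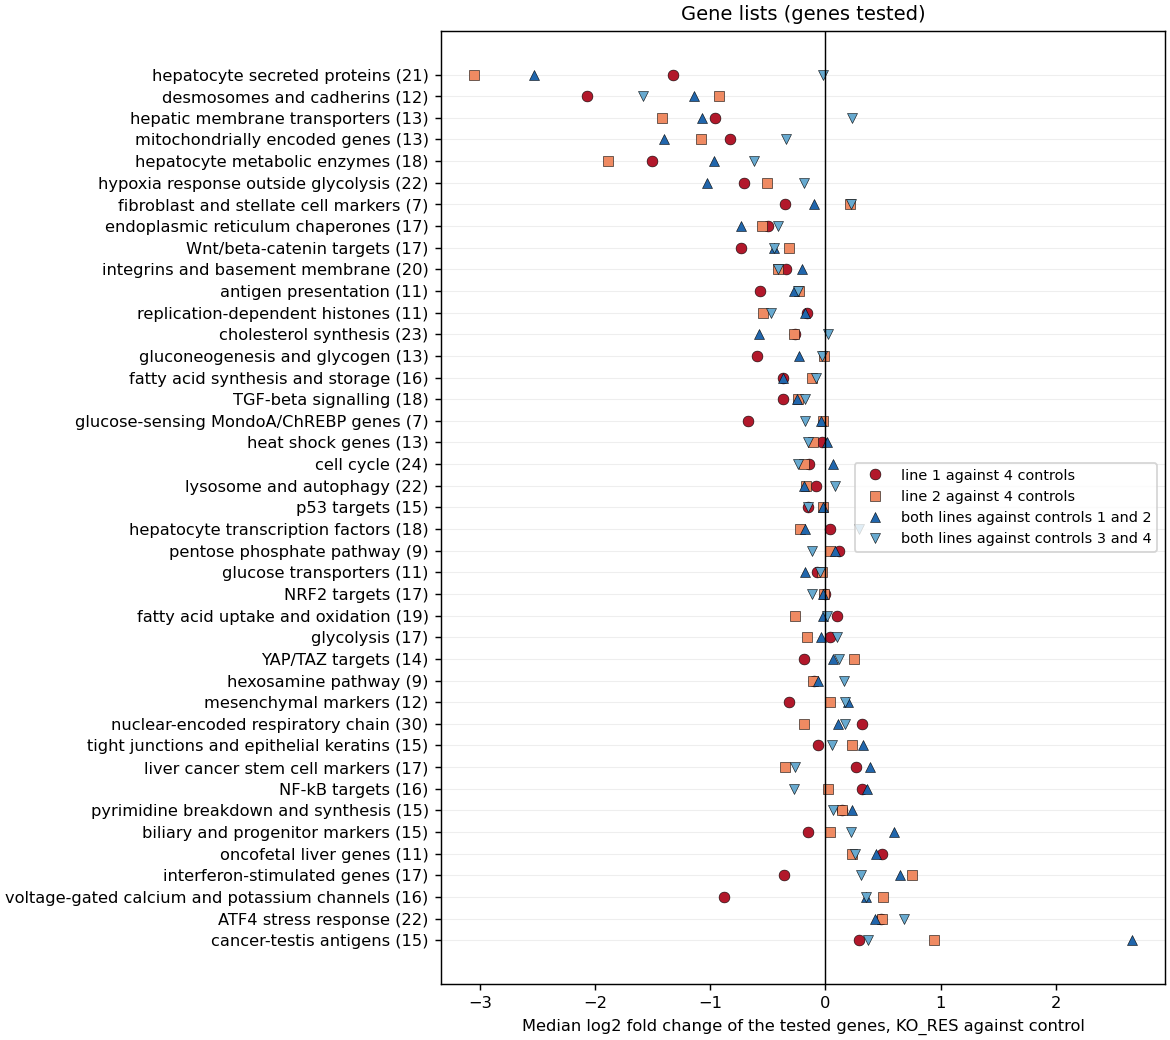
Median log2 fold change of KO_RES against control (horizontal axis) for each gene list with at least 5 tested genes, the number tested in parentheses. Circles and squares are line 1 and line 2 against all 4 controls, and triangles are both lines against controls 1 and 2 (up) or controls 3 and 4 (down). Hepatocyte secreted proteins run from -3.05 in line 2 to -0.02 against controls 3 and 4, while the chaperones stay between -0.73 and -0.41.

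In the fit by line, 3741 genes passed in line 1 and 1977 in line 2 against all 4 controls, and 2869 differed between the rescue lines (14.0%), 1591 of them higher and 1278 lower in line 2. These counts lean on single libraries too: line 1 had 1333 without KO_RES 1_2 and 1452 without KO_RES 1_1, and line 2 had 780 without KO_RES 2_2. The difference had 1160 without KO_RES 1_1, 1259 without KO_RES 1_2 and 1656 without KO_RES 2_2. By rule, the 5 largest line differences in each direction were named. APOB, the scaffold of very low density lipoprotein, was at 13640, 27660, 38.8 and 115 CPM in KO_RES, against 6337, 5572, 4806 and 6893 CPM in control. It rose in line 1 (1.81, adjusted p = 0.0239) and fell in line 2 (-6.27, adjusted p = 0.000479). ZNF704, a zinc finger gene, was at 0.0391, 0.0283, 118 and 114 CPM in KO_RES, against 44.7, 42.3, 36.3 and 39.8 CPM in control, so that line 1 lay below and line 2 above every control.

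DIAPH2, a formin that builds actin filaments, was at 47.1 and 51.8 CPM in line 1 and 0.0561 and 0.118 CPM in line 2 of KO_RES, against 33.7 to 35.4 CPM in control. KCNK1, a potassium channel, was at 0.0391 and 0 CPM in line 1 and 13.4 and 14.0 CPM in line 2, against 1.12 to 2.70 CPM in control. In the KO libraries APOB was above every control in line 1 and far below them in line 2 as well, at 10410 and 21600 CPM in line 1 and 20.2 and 47.8 CPM in line 2. The other genes named by this rule were SLC35F3, EPHA5 and CLMP, higher in line 2, and LINC00879, FAM50B and RAB39B, higher in line 1, with adjusted p for the difference between 2.95e-05 and 0.0211. Among 17 tested interferon-stimulated genes, 6 were higher in line 2 than in line 1 past the threshold, beside 7.74% of all genes, with OAS1 at 2.13 (adjusted p = 0.00071) and IFI6 at 1.81 (adjusted p = 0.0034). Over both lines USP18 was the only call of that list (1.15, adjusted p = 0.0454), lost in 10 of 12 omissions of a library. Of all genes 2.18% rose over both lines.

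Of 17 tested glycolysis genes 1 fell over both lines (beside 3.29% of all genes), with a median of 0.04. By library the median against the control mean was 0.07, 0.08, 0.10 and -0.43, so that KO_RES 2_2 stood below the other KO_RES libraries. In line 1 glycolysis had 4 rises and 2 falls (18.2% of all genes passed there), and in line 2 it had 1 rise and 1 fall (9.62%). The fall over both lines was PFKL, the liver phosphofructokinase, at 132 to 161 CPM in KO_RES and 200 to 240 CPM in control (-0.57, adjusted p = 0.0303), a call lost in 6 of 12 omissions of a library. OGT, which attaches the sugar of the hexosamine pathway to proteins, was at 204, 271, 244 and 314 CPM in KO_RES, against 126, 123, 144 and 150 CPM in control (0.93, SE 0.15, adjusted p = 0.00654), the 1 call of 9 genes. With edgeR, 0 of 13 genes of gluconeogenesis and glycogen, 0 of 11 glucose transporters, 0 of 9 pentose phosphate genes, 0 of 24 cell cycle genes and 0 of 15 p53 targets passed over both lines. At an unadjusted p under 0.05 these lists had 1, 1, 1, 2 and 1 genes, and DESeq2 called 0, 0, 1, 0 and 0. Of all genes 5.47% passed over both lines, so 0 calls in lists this small cannot show control levels. In line 1 gluconeogenesis and glycogen had 1 rise and 4 falls of 13, and glucose transporters 1 rise and 3 falls of 12. In line 2 they had 0 rises and 1 fall, and 2 rises and 1 fall. The remaining lists had at most 1 rise and 1 fall in either line.

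Over both lines the medians of the lipid lists lay between -0.31 and 0.01, but single genes fell further. Of all genes 3.29% fell over both lines. Of 23 tested cholesterol synthesis genes 1 fell, TM7SF2 (-0.75, adjusted p = 0.0126), with a list median of -0.31. Against controls 1 and 2 alone 10 of the 23 fell (beside 4.09% of all genes), with a median of -0.58. Against controls 3 and 4 edgeR called 0 and the median was 0.02. In fatty acid synthesis and storage 2 of 16 fell, DGAT1 (-0.62, adjusted p = 0.0184) and DGAT2 (-1.03, adjusted p = 0.0463), which make triglycerides. In fatty acid uptake and oxidation 3 of 19 fell and the median was 0.01. In line 1, 6 of these 19 rose and 6 fell (7.47% and 10.7% of all genes did). In line 2, 0 rose and 5 fell (4.26% and 5.36% of all genes did). CD36, a fatty acid receptor, was at 0.0195, 0, 0.187 and 0.163 CPM in KO_RES, against 50.1, 46.2, 0.490 and 0.425 CPM in control (adjusted p = 0.0187), so that most of its distance came from controls 1 and 2. EHHADH of the peroxisome fell too (-1.28, adjusted p = 0.0166). DGAT1, DGAT2, CD36 and EHHADH each lost the call without at least 1 library: control 2 for DGAT1, DGAT2 and EHHADH, and KO_RES 1_2 for DGAT1, DGAT2 and CD36.

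In the remaining lists few genes passed. Of all genes 5.47% passed over both lines, 2.18% higher and 3.29% lower. ERAP2, which trims peptides for antigen presentation, was at 22.2, 26.3, 26.2 and 27.3 CPM in KO_RES, against 55.4, 53.2, 40.2 and 43.2 CPM in control (-0.91, SE 0.15, adjusted p = 0.00659). BAG3, a co-chaperone, was the 1 call of 13 heat shock genes (-0.71, adjusted p = 0.0086), and GABARAPL1 the 1 call of 22 lysosome and autophagy genes (-0.77, adjusted p = 0.021). CACNA1H, a T-type calcium channel, fell beside CACNA2D1 (-0.95, adjusted p = 0.0206). Of 15 tested cancer-testis antigens PAGE5 and GAGE1 rose (beside 2.18% of all genes), GAGE1 at 0.195 to 0.393 CPM in KO_RES and at most 0.0177 CPM in control, with near-identical copies that make its counts uncertain. Of 11 oncofetal liver genes IGF2BP1 rose (0.42, adjusted p = 0.0252) and PEG10 fell (-0.81, adjusted p = 0.0378). The calls of GABARAPL1, CACNA1H and GAGE1 were lost without control 1 or control 2, as were those of IGF2BP1 and PEG10. Replication-dependent histones (11 tested) had 0 calls in edgeR, 0 at an unadjusted p under 0.05 and 0 in DESeq2, with a median of -0.32. By library their median against the control mean was 0, -0.41, 0.02 and -1.22, and that of the cell cycle genes 0.09, -0.35, 0.20 and -0.71. KO_RES 2_2, the lowest in both, also had the highest share of reads in no gene or in several (21.6%, against 13.6% to 16.5% in the other 11 libraries). Its part in these values was not tested.

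Fits against a single control pair ended further calls. Such a fit has 2 controls only, so a lost call alone does not show that the pairs differ. The calls of DKK1, ALDH1A1, APOH, GGT1, KRT7, SDHB, COX6C, TM7SF2, DGAT1, DGAT2, EHHADH, CD36, OGT, TRIB3, BAG3, ITGAV, USP18, ERAP2, GABARAPL1, GAGE1, PEG10, CACNA1H and TYMP were lost against controls 3 and 4 (adjusted p from 0.065 for ERAP2 to 0.43 for DGAT2) and held against controls 1 and 2. Those of SOX2, ANPEP, ITGA6 and AXL were lost against controls 1 and 2 (adjusted p from 0.0605 for AXL to 0.15 for ITGA6) and held against controls 3 and 4. Those of PFKL, ZNRF3, PROX1, ONECUT2, SESN2, F11R, TGFB2, HMOX1, IGF2BP1 and DPYS were lost against each pair alone. For PROX1 the log2 fold change was 0.73 over all controls (SE 0.15), and 0.73 and 0.72 against the pairs (SE 0.21 each). DPYS differed more by pair, at 1.38 against controls 1 and 2 and 2.46 against controls 3 and 4.

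The genes of some chromosomes stood off control as a block, in a line-dependent way. On chromosome 8 the median log2 CPM over 644 genes was 0.53 below the control mean in both line 1 libraries of KO_RES (-0.53 each), against -0.03 and -0.06 in line 2, and controls lay between -0.02 and 0.03. In the fit by line 85.3% of chromosome 8 genes had a negative fold change in line 1 and 37.2% passed, 10 higher and 248 lower. Of all genes 18.2% passed in line 1, 7.47% higher and 10.7% lower. On the X chromosome the medians were 0.33 and 0.40 in line 2 and 0.03 and 0.08 in line 1, with controls from -0.01 to 0.01. Chromosome 21 was at 0.32 and 0.31 in line 1 and -0.07 and -0.05 in line 2, although controls there ran from -0.12 to 0.13. Chromosome 4 was lower in all 4 KO_RES libraries (-0.23, -0.21, -0.17 and -0.12). Over both lines 7 of its genes were higher and 75 lower (11.9% of 689), LIMCH1, HPGD and FGB among the lower ones. Of all genes 5.47% passed over both lines, 2.18% higher and 3.29% lower. KO libraries gave like medians within a line, -0.53 and -0.52 on chromosome 8 in line 1 and 0.33 and 0.36 on X in line 2. What part the chromosome medians have in the single genes was not tested.

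**Figure D5:**
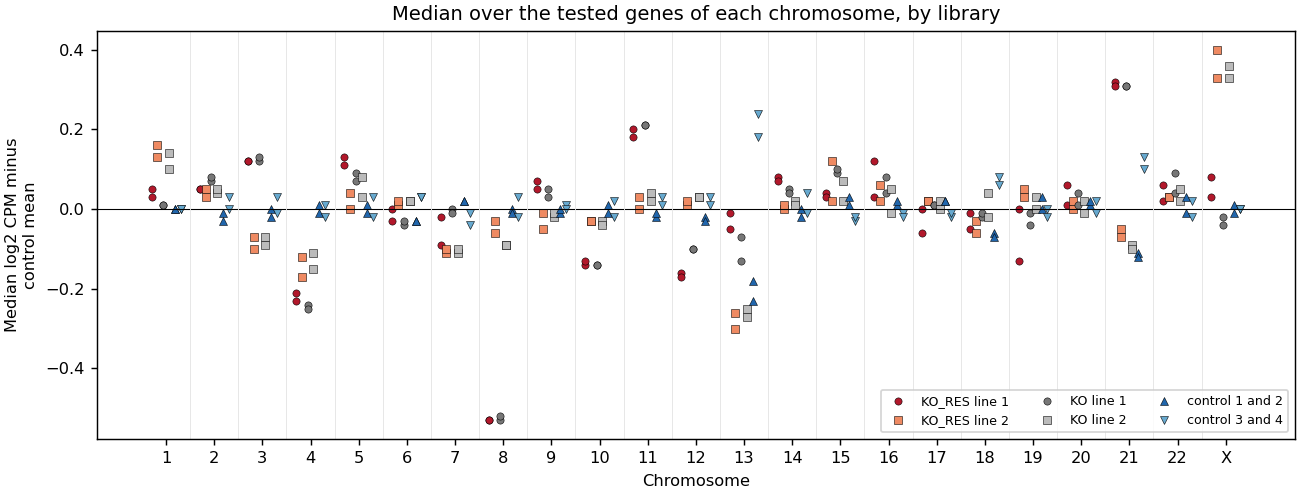
Median over the tested genes of each chromosome of log2 CPM minus the control mean (vertical axis), by library. Line 1 libraries of KO_RES and KO lie near -0.53 on chromosome 8 and near 0.31 on chromosome 21, line 2 libraries between 0.33 and 0.40 on X, and controls differ among themselves on chromosomes 13 and 21.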

How the data were processed

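Poly(A) RNA was sequenced from stranded libraries, per the labels' protocols. Reads were aligned with STAR 2.6.0b to GRCh37, per the submitters' processing notes. The deposited files hold raw read counts per gene for 57820 genes, 1 file per library, and the authors' column 4 was used, with the unstranded column 2 as an alternative. The 4 lines of unassigned reads were left out. Symbols were taken from a gene name table (39538 IDs matched, 39220 with a symbol of their own), chromosomes from GENCODE release 29, and 5.61% of counts fell on genes without a symbol.

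Counts were filtered with filterByExpr, scaled with TMM and tested with edgeR 4.0.16 in R 4.3.3 (quasi-likelihood test, Benjamini-Hochberg adjustment, threshold 0.05). The main model had 3 groups (KO_RES, KO and control). A model with 5 groups gave the values by line. A floor of 3 counts per library stands for values under it. Alternatives were DESeq2 1.42.0, RLE scaling, no filter, unstranded counts, a fold threshold, each control pair, other sets of libraries, groups by the genotype field, and leaving out each library. The edgeR step was tested on simulated data. The pairs KO_RES 1_1 and 1_2, KO_RES 2_1 and 2_2, controls 1 and 2, and controls 3 and 4 were checked for duplicates. None of these pairs were duplicates within counting noise, and other pairs were not checked.

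Named genes were HKDC1, other hexokinases and CTNNB1, the 15 rises and 15 falls with the widest gap between groups among called genes with a mean of at least 2 CPM, up to 4 called genes with the smallest adjusted p in each of 44 lists, and the 5 largest line differences each way. The members and lists were chosen with earlier results of these data known. Counting intervals and floors cover counting error only. Results for 2 genes under this rule are not reported here.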

Additional observations from a re-analysis of the deposited data

Results flagged for a closer look

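In 230 groups of 4 libraries, 12 held a library far from the other 3 (gap over range above Dixon's critical value for 4 samples). Chance flags about 1 in 20 such groups. In KO_RES these were CTNNB1, with a highest value of 462 CPM, SLC19A3 with 40.5 CPM, CDC20B with 12.9 CPM, DIO3 with 11.1 CPM and KRT7 with 1.11 CPM. BAG3 with 29.3 CPM, LTBP1 with 75.7 CPM and GAGE1 with 0.393 CPM were flagged for a high library too, and COX6C for a low one with 77.5 CPM. In control they were HK1 with 28.1 CPM, DPYD with 0.453 CPM and TGFB3 with 1.65 CPM. The change of HK2 had opposite signs in the 2 rescue lines and differed between them by 1.81 on the log2 scale (line 2 minus line 1, adjusted p = 0.00628, edgeR's quasi-likelihood test).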

How the results depend on the processing

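Against 1050 genes, KO_RES against control gave 2042 with DESeq2, 3171 from the mean of both lines, 1874 with groups by the genotype field, 533 from the 8 libraries alone, 384 with controls 3 and 4, 72 when tested against a log2 change of 1 and 64 from libraries whose title and genotype field agree. Leaving out 1 library gave 471 to 1138. In line 1 a fold threshold gave 668 and omissions 1333 to 4139. In line 2 DESeq2 gave 3032, no filter 3551, a fold threshold 214, controls 1 and 2 3856, and omissions 780 to 2102. For line 2 minus line 1 the fold threshold gave 567 and omissions 1160 to 3206. Under the mean of both lines ZNF704 was at -4.30, KCNK1 at -1.69 and APOB at -2.23 on the log2 scale, against uncalled values of 0.51, 1.87 and 0.81. That setting averages the 2 line changes on the log2 scale, while the values it is set against pool the 4 KO_RES libraries. Of 100 called named genes, 56 lost the call against controls 3 and 4 and 17 against controls 1 and 2, and 49 kept it without any single library. No paired analysis was possible because the control titles carry no line.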

Other observations

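By annotated gene type, 6.64% of 13871 protein-coding genes differed between KO_RES and control at an adjusted p under 0.05 in edgeR's quasi-likelihood test, 337 higher and 584 lower. Long intergenic RNAs had 30 higher and 13 lower of 1157 (3.72%), and antisense RNAs 13 higher and 10 lower of 1271 (1.81%). Processed pseudogenes had 9 higher and 1 lower of 690 (1.45%). Sequence shared between pseudogenes and their parent genes makes those counts uncertain.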
